A study of Mus musculus with 30 samples.

Results

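Unstressed mice of both interneuron reporter lines were compared by RNA-seq of sorted cells from the medial prefrontal cortex (mPFC). The comparison set 14 libraries from Sst mice against 7 from Pvalb mice, which are 21 of the 24 libraries in the deposited table. They were chosen by their labels, as every library of that table whose mouse had not been exposed to stress. The mice were C57BL/6, 6 to 12 weeks old and heterozygous for a Cre allele, Sst-Cre or Pvalb-Cre, and for the Cre-dependent Ai9 tdTomato reporter, so that tdTomato marks every cell whose lineage used the driver at any time. All groups carried the reporter and none had received a treatment. The Sst side held 7 libraries labelled female and 7 labelled male, and the Pvalb side held 7 labelled male, so line and sex label are partly mixed. Values of SST0-M matched those of SST1-M almost exactly, as did those of PV0-M and PV2-M. Each pair was averaged and counted once, which left 13 Sst and 6 Pvalb samples. Some of the rest also lay close together. The SD of their pairwise log2 ratios was 0.225 to 0.276 for PV5-M, PV4-M and PV1-M. It was 0.258 for PV6-M with PV3-M, and 0.56 to 0.813 for every other pairing of Pvalb samples. For SST4-F, SST3-F and SST1-F it was 0.249 to 0.263, and for SST6-F, SST5-F and SST2-F 0.218 to 0.243. Across these female sets it was 0.413 to 0.466. The tests treat all samples as separate, and the effect of this closeness on the p-values was not tested. Nothing in the labels says that the samples are separate animals, so the p-values measure the spread between these samples, which may in part be technical.

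Somatostatin and parvalbumin interneurons are the largest classes of inhibitory neurons in the cortex. Somatostatin cells release the neuropeptide Sst together with GABA and contact distal dendrites of pyramidal cells, whereas parvalbumin cells fire fast, contact cell bodies and initial segments, and rely on Kv3 potassium channels (Kcnc genes), P/Q-type calcium channels (Cacna1a) and the fast release machinery of the presynaptic terminal. Sorted cells of each class are usually checked by high levels of the driver gene, by Gad1, Gad2 and Slc32a1, and by low levels of transcripts from glia and vessels.

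Values are FPKM, in which fragment numbers are divided by transcript length and by the library's mapped total, so levels can be compared between genes. Library totals ranged from 276023 to 343714 FPKM in the female Sst and the Pvalb libraries, from 311276 to 432075 in the male Sst libraries with a running number in the title (numbered), and from 681118 to 959187 in the 3 male Sst libraries whose titles read like dates (dated), in which small nucleolar RNA genes held 53.5% to 60.3% of the total. The table gives no read counts per library, so no counting error is given. The samples PV1-M, PV4-M and PV5-M, labelled male, held both a high level of Xist and Y-linked RNA. Xist, the RNA that silences an X chromosome in female cells, was at 300.2 to 333 FPKM in them, against 0.442 to 6.64 in the other Pvalb samples, and the Y-linked Eif2s3y was at 8.58 to 12.1 FPKM, against 47 to 62. In the 7 female Sst samples Xist was at 479.4 to 643.6 FPKM and Eif2s3y at 0. The reason was not tested. None of 5 tested sex-linked genes passed between the lines. These 3 samples are called the high-Xist samples, and the main results are given with and without them. Without them no gene list below had more than 1 gene past the threshold.

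The defining transcripts of interneurons were low in both lines and those of glia were high. Homeostatic microglia markers (22 genes, among them C1qc, a complement subunit made by microglia) had a mean log2(FPKM + 1) per sample of 7.78 ± 0.39 in Sst samples and 8.5 ± 0.13 in Pvalb samples (SD, n = 13 and n = 6). The 14 genes of the GABA machinery and interneuron transcription factors had 1.56 ± 0.23 in Sst samples and 1.7 ± 0.2 in Pvalb samples, and 15 astrocyte markers, leaving out Slc1a2 after its values were seen, had 6.61 ± 0.48 in Sst samples and 6.56 ± 0.21 in Pvalb samples. The label interneuron is therefore used here only for the mouse line, and samples are called Sst or Pvalb samples. In bulk samples such as these, fewer cells of a type and less RNA per cell cannot be told apart.

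The Pvalb samples were not alike in their marker levels. The mean over 14 endothelial markers was 3.34 in the averaged PV0-M and PV2-M sample, and 0.99 to 1.25 in the other 5. The mean over 23 pan-neuronal markers was 2.23 in that sample, and 4.0 to 4.26 in the other 5. Ependymal and choroid plexus markers (Ttr, Foxj1 and Folr1) had a mean of 2.59 to 2.73 in the high-Xist samples, 1.47 to 1.55 in PV3-M and PV6-M, and 0.3 in PV0-M and PV2-M. Among Sst samples, SST-F stood apart with a pan-neuronal mean of 4.0, against 2.35 to 3.06 in the other 12, and SS04031R, SST4-M and SST3-M had the 3 lowest endothelial means (1.3 to 2.37, against 3.28 to 4.07).

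**Figure D1:**
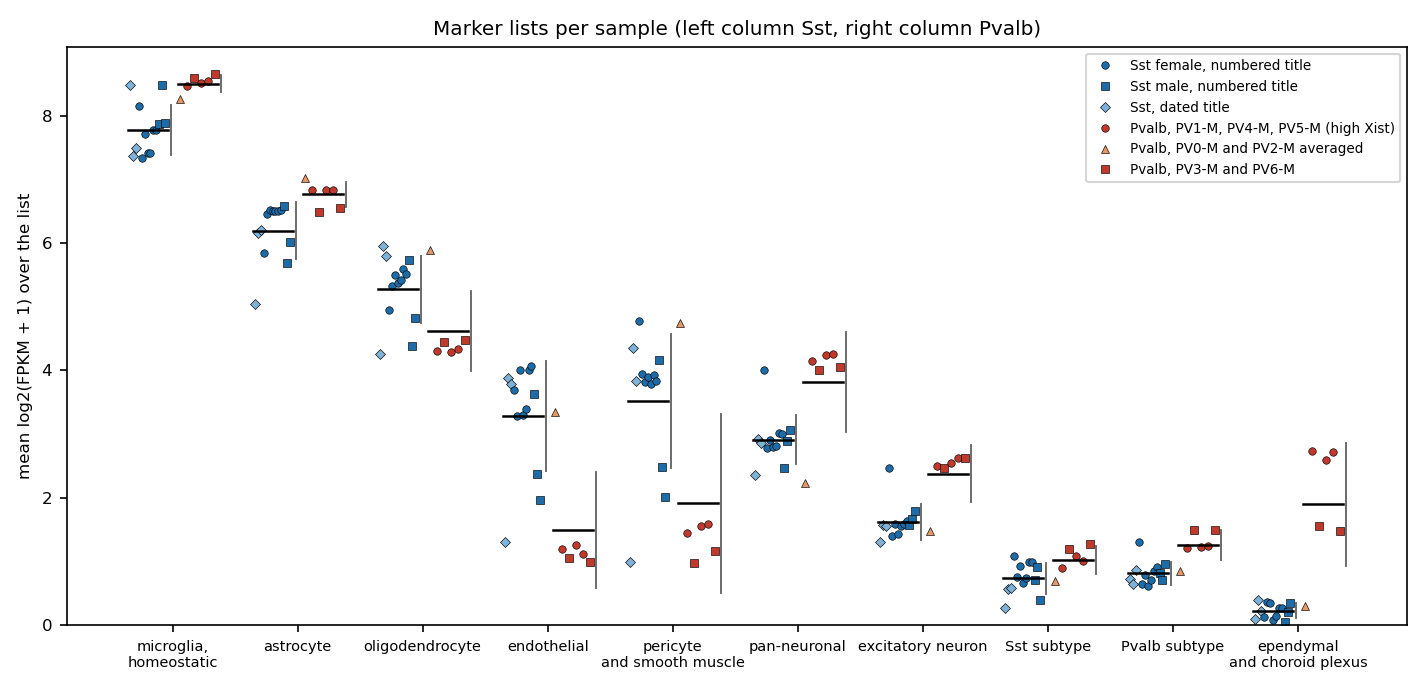
Mean log2(FPKM + 1) over 10 lists of marker genes (y axis), one point per sample, with the 13 Sst samples on the left and the 6 Pvalb samples on the right of each list. Black lines are means and grey bars 1 SD either side, and colours and shapes give the line, the sex label and the title or kind of library. The averaged PV0-M and PV2-M sample (triangle) lies nearer the Sst samples than the other 5 Pvalb samples for the endothelial, pericyte and pan-neuronal lists, and the astrocyte list here includes Slc1a2, listed at 0 in all Sst samples.

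The Sst transcript was lower, not higher, in the Sst samples. Sst was listed at 0 to 49.3 FPKM in Sst samples (median 5.06) and 12.5 to 30.5 in Pvalb samples (median 24.9). Below the whole Pvalb range lay 10 of 13 Sst samples, SST5-F and SST6-F lay among them at 18.2 and 16.7 FPKM, and SST-F, at 49.3 FPKM, lay above all of them. This gave −2.05 on the log2 scale (exact two-sided permutation, p = 0.00656). It was −1.65 without the high-Xist samples (exact permutation test, p = 0.118). After the pan-neuronal mean of the same sample was subtracted it was −1.14 (exact permutation test, p = 0.0596), an alternative chosen after the data were seen.

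The Pvalb transcript, a calcium-binding protein of fast-spiking cells, was low in both lines and higher in the Pvalb samples. Pvalb was listed at 0 to 1.93 FPKM in Sst samples (median 0) and 0.89 to 5.07 in Pvalb samples (median 2.59). It was at 0 in 8 of the 13 Sst samples, and the lowest Pvalb sample was the averaged PV0-M and PV2-M pair. This gave −1.42 on the log2 scale (exact two-sided permutation, p = 0.000516), −1.08 without the high-Xist samples (exact permutation test, p = 0.0214) and −0.51 after subtraction of the pan-neuronal mean (exact permutation test, p = 0.0319).

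**Figure D2:**
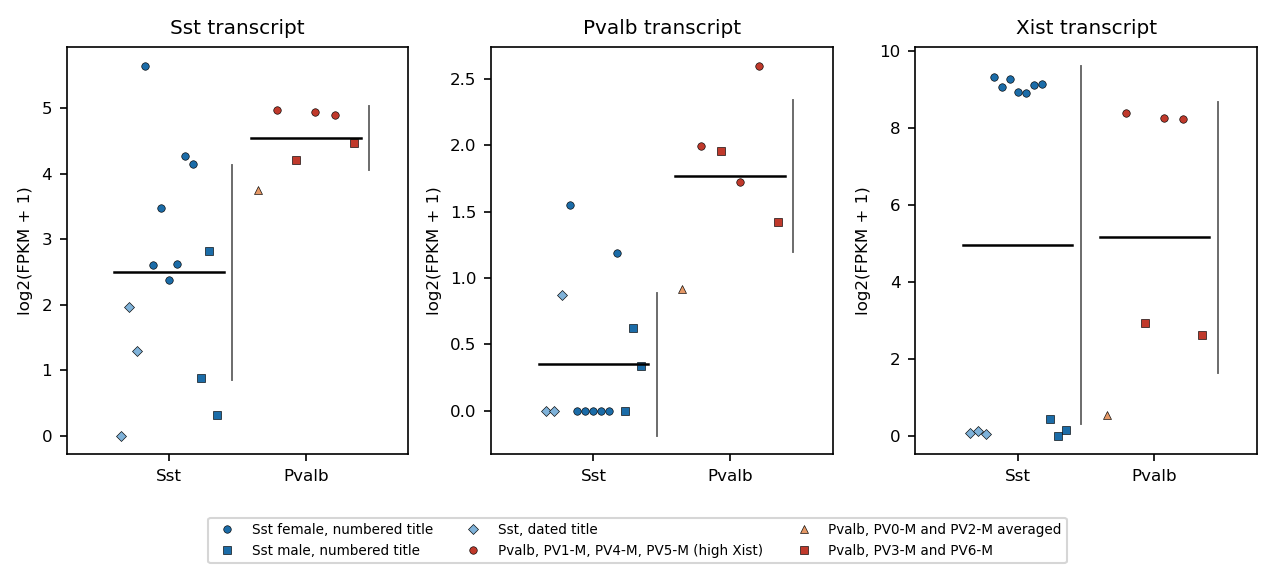
Sst, Pvalb and Xist transcripts as log2(FPKM + 1) (y axes) in each of the 13 Sst and 6 Pvalb samples. Black lines are means and grey bars 1 SD either side. The 3 high-Xist Pvalb samples hold the 3 highest Sst levels of their line (28.8 to 30.5 FPKM), and SST-F is the highest of all for Sst (49.3 FPKM).

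Across all genes, 14524 had a mean above 0.4 FPKM and were tested with limma on log2(FPKM + 1), with Benjamini-Hochberg adjustment and a threshold of 0.05. In Sst samples 479 genes (3.30% of those tested) were higher and 654 (4.50%) were lower, and the median log2 difference of all tested genes was 0.00. With a pseudocount of 0.1 the split was 574 higher and 504 lower. The percentages of higher and lower genes are the background against which each gene list below is read. Without the 3 high-Xist samples, which left 3 Pvalb samples, 14 genes passed, 3 higher and 11 lower. The part of the smaller group in this lower count was not tested. Of the 1133 genes 1099 kept the sign of their difference, but they were selected with all samples and both fits share samples. Leaving out PV1-M, PV4-M or PV5-M alone left 428, 390 and 389 genes, and leaving out PV6-M left 717. Leaving out the averaged PV0-M and PV2-M sample gave 2130 genes, and leaving out the averaged SST0-M and SST1-M sample gave 1910. In every fit that left out a single sample 351 of the 1133 genes passed, 135 higher and 216 lower in Sst samples. With the 10 numbered Sst samples only, 705 genes of 14483 (4.87%) were higher and 773 (5.34%) lower, and 921 of the 1133 genes passed again. SST-F, whose title holds no number, was counted among these 10 samples. With the 6 male Sst samples only, whose sex label matches that of the Pvalb side, 491 genes passed, and with the 7 female ones 3638. With the mean of the microglia, pan-neuronal or endothelial markers as a covariate, 38, 29 and 26 genes passed (the last 2 covariates were chosen after the data were seen).

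**Figure D3:**
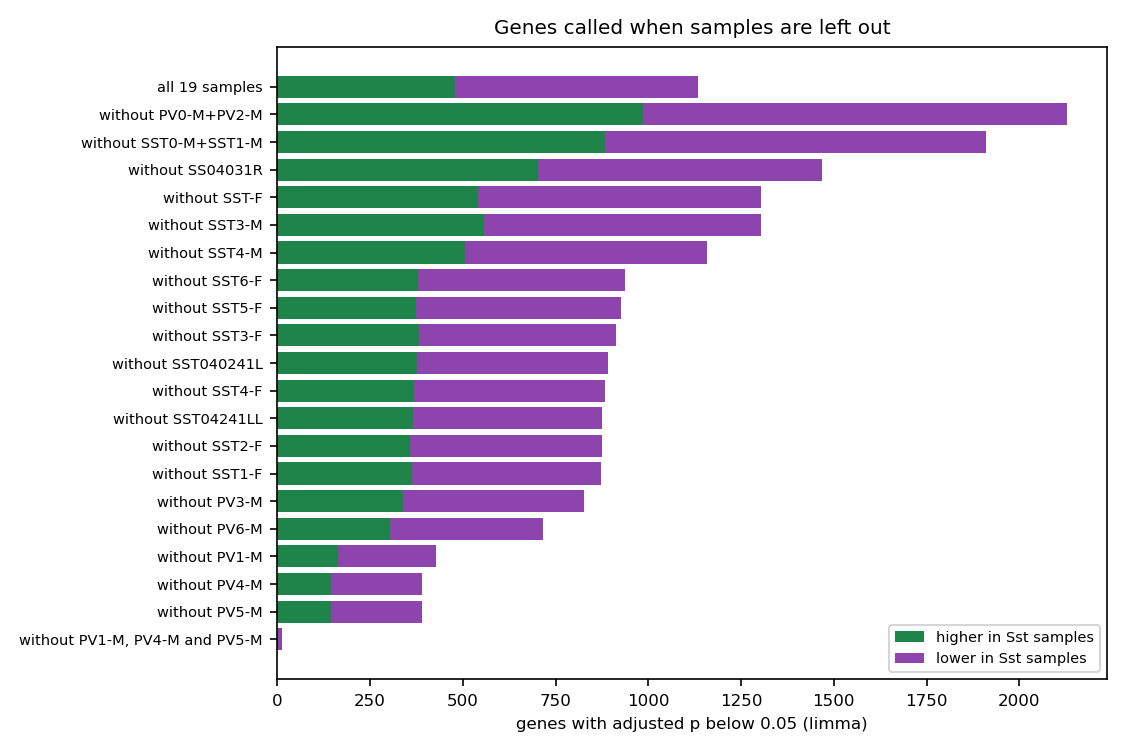
Number of genes with a limma adjusted p below 0.05 (x axis) for all 19 samples and with samples left out (y axis), split into genes higher and lower in Sst samples. The counts run from 2130 without the averaged PV0-M and PV2-M sample to 389 without PV5-M and 14 without PV1-M, PV4-M and PV5-M together.

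Vascular transcripts were higher in Sst samples. Of 14 endothelial markers, 11 rose in Sst samples, none was lower, and the list's median log2 difference was 1.76 (1.42 without the high-Xist samples). The count was 5 without PV1-M, PV4-M or PV5-M and 12 without the averaged PV0-M and PV2-M sample. With male Sst samples only none passed (median 1.3), and with female ones 13 rose (median 2.25). Flt1, a VEGF receptor, was at 1.98 to 39.3 FPKM in Sst samples (median 30.7) and 0.524 to 15.8 in Pvalb samples (median 1.28). Its log2 difference was 2.72 (SE 0.55, adjusted p = 0.00579), and 8 of 13 Sst samples lay above every Pvalb sample. Cldn5, the claudin of tight junctions in the blood-brain barrier, was at 1.2 to 29.8 FPKM in Sst samples (median 16.6) and 0 to 5.96 in Pvalb samples (median 1.42), with a log2 difference of 2.51 (SE 0.53, adjusted p = 0.00783). Ly6c1, a surface protein of brain endothelium, had a log2 difference of 2.93 (adjusted p = 0.032), and the organic anion transporter gene Slco1a4 had 2.92 (adjusted p = 0.0181). In both of the latter the averaged PV0-M and PV2-M sample, at 38.2 and 29.3 FPKM, lay among the Sst samples, whereas the other 5 Pvalb samples had at most 1.5 and 1.32 FPKM. The other endothelial markers that rose were Tek, Esam, Emcn, Cdh5, Kdr, Vwf and Tie1, by 1.23 to 2.06 on the log2 scale. No endothelial marker separated the lines without overlap.

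Of 9 pericyte and smooth muscle markers, 2 rose in Sst samples and the median was 1.71 (1.2 without the high-Xist samples). Without the averaged PV0-M and PV2-M sample, or without SS04031R, 6 rose, and without any single one of the other 5 Pvalb samples none passed. With male Sst samples only none passed (median 1.15), and with female ones 7 rose (median 2.1). Kcnj8, the pore subunit of the pericyte ATP-sensitive potassium channel, was at 0.246 to 27.7 FPKM in Sst samples (median 7.89) and 0 to 10.2 in Pvalb samples (median 0.161), and the smooth muscle myosin gene Myh11 was at 0.682 to 10.4 FPKM in Sst samples (median 5.9) and 0.227 to 7.75 in Pvalb samples (median 0.356). The log2 differences were 2.09 (SE 0.6, adjusted p = 0.0352) and 1.59 (SE 0.44, adjusted p = 0.03). Here too the highest Pvalb value was that of PV0-M and PV2-M, at 10.2 and 7.75 FPKM. Red blood cell genes (6 in the table) had a median of 0.93 and none passed.

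Neuronal transcripts were lower in Sst samples. Of 23 pan-neuronal markers, 9 fell in Sst samples, none was higher, and the median was −0.97 (−0.53 without the high-Xist samples). The count was 1 without PV1-M, PV4-M, PV5-M or PV6-M and 15 without the averaged PV0-M and PV2-M sample. With male Sst samples only 4 fell (median −1.14), and with female ones 8 fell (median −0.57). Syn1, a synaptic vesicle protein whose gene overlaps Araf and Timp1, was at 3.02 to 21.8 FPKM in Sst samples (median 7.54) and 7.01 to 57.3 in Pvalb samples (median 47.2), and its log2 difference was −2.18 (SE 0.4, adjusted p = 0.00377). Snap25, a SNARE protein of vesicle fusion, was at 11.3 to 152 FPKM in Sst samples (median 27.9) and 22.4 to 221 in Pvalb samples (median 131), and its log2 difference was −1.87 (SE 0.48, adjusted p = 0.0224). SST-F, at 152 FPKM, lay among the Pvalb samples for Snap25, and the averaged PV0-M and PV2-M sample, at 22.4 FPKM, lay among the Sst samples. Gap43, a protein of growing axons, fell by 1.84 on the log2 scale (adjusted p = 0.0264) and the RNA-binding protein gene Celf4 fell by 1.81 (adjusted p = 0.0486). Rbfox3, Stx1a, Thy1, Dlg4 and Elavl4 were the other 5 that fell.

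**Figure D4:**
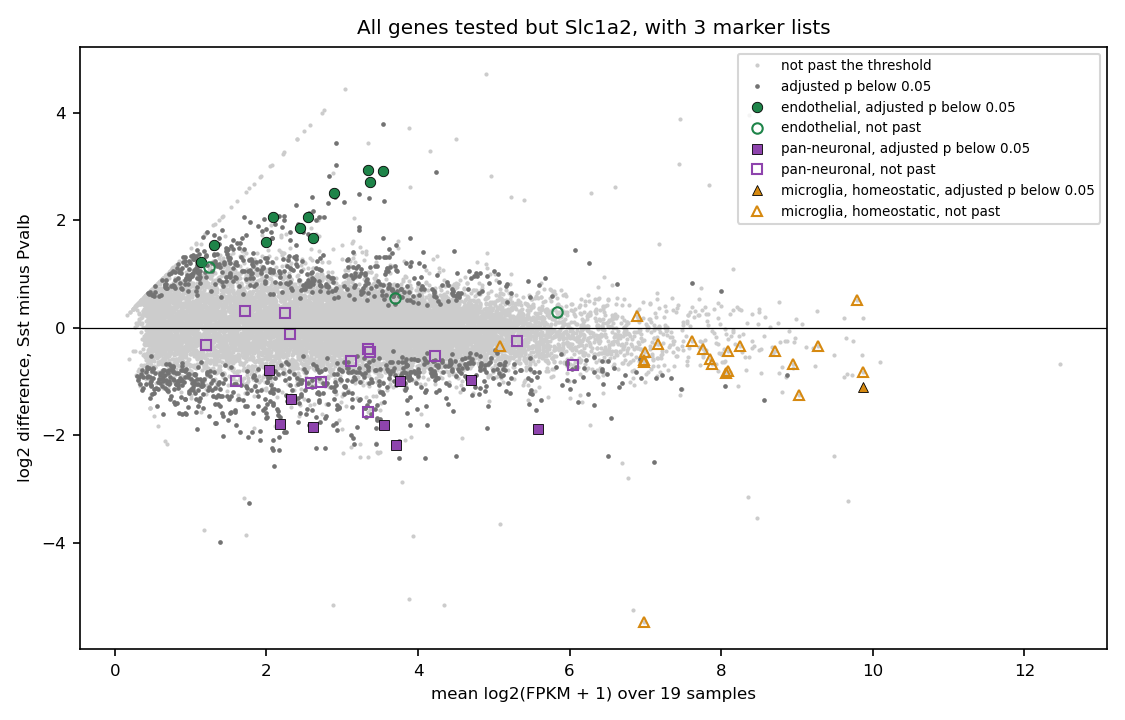
Log2 difference, Sst minus Pvalb (y axis), against the mean log2(FPKM + 1) over 19 samples (x axis) for every tested gene except Slc1a2. Filled symbols passed an adjusted p of 0.05. Endothelial markers lie above 0 (median 1.76), pan-neuronal markers mostly below it (median −0.97), and homeostatic microglia markers lie at the highest levels (median −0.52).

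Excitatory neuron markers also were lower in Sst samples. Of 11 tested markers of excitatory neurons, 5 fell in Sst samples, with a median of −0.88 (−0.6 without the high-Xist samples), and 9 fell without the averaged PV0-M and PV2-M sample. With male Sst samples only none of 12 tested passed (median −0.83), and with female ones 5 fell and 1 rose (median −0.87). Camk2a, a kinase of excitatory synapses, was at 20.3 to 216 FPKM in Sst samples (median 47) and 21.2 to 499.7 in Pvalb samples (median 467), and its log2 difference was −2.38 (SE 0.54, adjusted p = 0.0116). The 5 Pvalb samples other than PV0-M and PV2-M lay above every Sst sample, at 435 FPKM or more, and PV0-M and PV2-M had 21.2. Slc17a7, the vesicular glutamate transporter of cortical pyramidal cells, fell by 1.75 on the log2 scale (adjusted p = 0.0121). The transcription factor genes Neurod2 and Bcl11b fell by 1.60 and 0.95.

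Subtype markers of either line that passed were lower in Sst samples. Of 6 tested Sst subtype markers none was higher in Sst samples and 2 were lower, Sst itself and Elfn1, a synaptic organiser of somatostatin cells. Elfn1 was at 0.205 to 2.14 FPKM in Sst samples (median 0.54) and 1.88 to 3.19 in Pvalb samples (median 2.82), with a log2 difference of −1.22 (SE 0.21, adjusted p = 0.00244). Of 7 tested Pvalb subtype markers 4 were lower in Sst samples, with a median of −0.83 (−0.87 without the high-Xist samples). With 1 sample left out, 1 to 2 of the Sst subtype markers were lower. For the Pvalb subtype markers 2 to 4 were lower and 0 to 1 higher, with the fewest lower without PV1-M, PV5-M or PV6-M. Kcnc1, a Kv3 channel of fast-spiking cells, was at 0.808 to 2.54 FPKM in Sst samples (median 1.17) and 2.73 to 4.84 in Pvalb samples (median 4.28), and its groups did not overlap. Its log2 difference was −1.05 (SE 0.18, adjusted p = 0.00245). Cplx1, a complexin of fast release, fell by 2.16 (adjusted p = 0.0251), but ranged in Pvalb samples from 0.75 FPKM in PV0-M and PV2-M to 54.5 in PV5-M. The heavy neurofilament gene Nefh fell by 0.83 (adjusted p = 0.0196). Of 11 tested genes of the GABA machinery and interneuron transcription factors only Satb1, a chromatin organiser of medial ganglionic interneurons, passed, and it fell by 0.76 (adjusted p = 0.011). None of the 5 tested markers of other interneuron subtypes passed. Among these Cck, a peptide of another interneuron class and of pyramidal cells, had a log2 difference of −2.02 (adjusted p = 0.0515).

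Genes of synaptic release and ion channels that passed were nearly all lower in Sst samples. Of 34 tested genes of synaptic vesicle release, 9 fell in Sst samples and none rose (median −0.47, and −0.35 without the high-Xist samples), against 4 without PV5-M and 16 without the averaged PV0-M and PV2-M sample. Besides Cplx1, Syn1 and Snap25 these included Rph3a, a Rab3 effector, which fell by 2.11 (adjusted p = 0.00951). Of 20 tested voltage-gated calcium channel genes 4 fell and none rose (median −0.28, and −0.14 without the high-Xist samples), and 2 fell without PV1-M, PV4-M or PV5-M. Cacna1a, the pore subunit of the P/Q-type channel (chromosome 8, 84338631 to 84640251 of GRCm38.p6), was at 0.172 to 2.96 FPKM in Sst samples (median 2.24) and 7.34 to 14.5 in Pvalb samples (median 10.7). All 13 Sst samples lay below all 6 Pvalb samples, and the log2 difference was −2.03 (SE 0.23, adjusted p = 4.59e-05), or −2.08 without the high-Xist samples, where it still passed (adjusted p = 0.00894). Cacnb3, an auxiliary beta subunit, was at 1.34 to 15.6 FPKM in Sst samples (median 2.7) and 5.52 to 30.5 in Pvalb samples (median 22.1), with a log2 difference of −2.23 (SE 0.37, adjusted p = 0.00244). Cacng2, which also escorts AMPA receptors, and Cacna1b, the N-type pore subunit, fell by 0.97 and 0.71. Cacna1b was at 2.43 to 2.69 FPKM in the high-Xist samples and 0.37 to 0.938 in the other Pvalb samples, which overlapped the Sst samples (0.218 to 0.641).

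Of 54 tested potassium channel genes 10 fell and Kcnj8 alone rose (median −0.32, and −0.13 without the high-Xist samples). Without PV4-M or PV5-M 5 fell. Kcnd1, a Kv4 channel of A-type current, was at 5.13 to 17.5 FPKM in Sst samples (median 10.3) and 19.3 to 50.2 in Pvalb samples (median 33) and did not overlap between the lines, with a log2 difference of −1.51 (SE 0.24, adjusted p = 0.00211). Kcnip2, a Kv4 accessory protein, fell by 1.54 (adjusted p = 0.0209). Of 4 tested sodium channel genes only Scn2b, a beta subunit, passed and it fell by 1.59 (adjusted p = 0.00132). The kainate receptor gene Grik3 was the only member to pass among 16 ionotropic glutamate receptor genes and Grm4 the only one among 5 metabotropic ones, with log2 differences of −1.04 and −0.77. None of 13 GABA-A receptor genes passed (median 0.02). Gabrb1 and Gabrg1, which have the highest mean of that list, had log2 differences of 0.65 (adjusted p = 0.113) and 0.69 (adjusted p = 0.0684). The pan-neuronal mean was higher in 5 of 6 Pvalb samples than in 12 of 13 Sst samples, and its part in these differences was not tested.

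Microglial transcripts leaned lower in Sst samples and few passed. The median over 22 homeostatic markers was −0.52, 20 of 22 had a negative sign, and 1 passed. With 1 sample left out 0 to 6 were lower, the most without SS04031R. With male Sst samples only 1 was lower and 1 higher (median −0.2), and with female ones 19 were lower (median −0.88). C1qc was at 435 to 1530.0 FPKM in Sst samples (median 712) and 1083 to 1952 in Pvalb samples (median 1653), with a log2 difference of −1.09 (SE 0.26, adjusted p = 0.0151). Of 17 tested disease-associated microglia markers Itgax, an integrin of activated myeloid cells, was the only gene to pass, with a log2 difference of −1.02 (adjusted p = 0.0345). No gene passed among 8 tested markers of perivascular macrophages, 5 of monocytes and neutrophils, and 4 of lymphocytes.

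Of 30 tested MHC genes 3 fell and none rose, and the median was −0.15 (0.06 without the high-Xist samples). H2-Ab1, a class II beta chain, was at 0 to 4.59 FPKM in Sst samples (median 1.97) and 2.82 to 27.2 in Pvalb samples (median 13.2), and Cd74, the invariant chain, was at 2.12 to 15.9 FPKM in Sst samples (median 5.99) and 6.6 to 90.6 in Pvalb samples (median 48.4). Cd74 was at 81.9 to 90.6 FPKM in the high-Xist samples and 6.6 to 14.9 in the other 3 Pvalb samples, which overlapped the Sst samples. The log2 differences of H2-Ab1 and Cd74 were −2.26 (SE 0.39, adjusted p = 0.00245) and −2.16 (SE 0.49, adjusted p = 0.0113), and −1.33 and −0.62 without the high-Xist samples. H2-Oa, a chain of the class II loading regulator, fell by 1.35 (adjusted p = 0.0445), or had −0.19 without them.

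Of 16 tested complement genes (median −0.47, and −0.57 without the high-Xist samples) 3 fell, which were C1qc and Itgax of the microglia lists and Cfb, factor B of the alternative pathway. Cfb was at 0.0962 to 1.28 FPKM in Sst samples (median 0.862) and 1.81 to 4.26 in Pvalb samples (median 2.7) without overlap, with a log2 difference of −1.05 (SE 0.19, adjusted p = 0.00326). Interferon-stimulated genes leaned the other way: of 29 tested, 2 rose and none fell (median 0.55, and 0.45 without the high-Xist samples). With 1 sample left out 0 to 5 were higher, with none without any single Pvalb sample other than the averaged pair. Isg15, a ubiquitin-like modifier, was at 0.223 to 31.1 FPKM in Sst samples (median 2.21) and 0 to 1.7 in Pvalb samples (median 0) and Ifi44 at 0 to 2.69 FPKM in Sst samples (median 1.8) and 0 to 0.418 in Pvalb samples (median 0), with log2 differences of 1.56 (adjusted p = 0.0353) and 1.05 (adjusted p = 0.0287). For each, 10 of 13 Sst samples lay above every Pvalb sample. Of 39 tested chemokine and cytokine genes Il34, a ligand of the Csf1 receptor, rose by 1.27 (adjusted p = 0.025), and Ccl8 and Cxcl17 fell by 1.46 and 1.13. Ccl8 was at 6.92 to 8.53 FPKM in the high-Xist samples, and at 0 in the other Pvalb samples and in 12 of 13 Sst samples. Ticam1, the adaptor of Tlr3 and Tlr4, was the only Toll-like receptor or adaptor gene of 20 to pass and fell by 0.79 (adjusted p = 0.0357).

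Of 15 oligodendrocyte markers 13 had a positive difference and 3 passed. Mal and Sox10 rose by 1.2 and 1.06 on the log2 scale (adjusted p = 0.0464 and 0.0315), and Mbp, myelin basic protein, fell by 1.08 (adjusted p = 0.0251). Mbp was at 51.9 to 314 FPKM in Sst samples (median 222) and 329 to 518 in Pvalb samples (median 444), so its lines did not overlap, whereas the averaged PV0-M and PV2-M sample had 174 FPKM of Mal, above all Sst samples but SST0-M and SST1-M. The list's median was 0.84 (0.37 without the high-Xist samples). Without the averaged PV0-M and PV2-M sample 8 markers were higher and 1 lower, and without any single one of the other 5 Pvalb samples none passed. None of the 5 oligodendrocyte precursor markers passed. Gpr17, a receptor of cells committed to the oligodendrocyte lineage, lay above every Pvalb sample in 12 of 13 Sst samples and had a log2 difference of 1.33 (adjusted p = 0.0566).

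Both tested ependymal and choroid plexus markers fell in Sst samples. Ttr, the thyroid hormone carrier made by choroid plexus, was at 85.5 to 87.2 FPKM in the high-Xist samples, 4.61 and 6.31 in PV6-M and PV3-M, 0 in PV0-M and PV2-M, and at most 0.485 in Sst samples. Its log2 difference was −3.99 (SE 0.67, adjusted p = 0.00244), and −1.66 without the high-Xist samples. Foxj1, the regulator of motile cilia, was at 0.0388 to 1.02 FPKM in Sst samples (median 0.414) and 0.866 to 2.79 in Pvalb samples (median 2.32), with a log2 difference of −1.06 (SE 0.18, adjusted p = 0.00245).

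Astrocyte markers did not move as a group: the median over 16 was 0.02, and 2 passed. Slc1a3, the glutamate transporter GLAST, was at 167 to 377 FPKM in Sst samples (median 341) and 159 to 282 in Pvalb samples (median 169.8), with a log2 difference of 0.69 (SE 0.21, adjusted p = 0.0428). Slc1a2, the other main astrocytic glutamate transporter (GLT-1, chromosome 2, 102658239 to 102790784 of GRCm38.p6), was listed at 0 in all 14 Sst libraries. In the Pvalb libraries it was at 1037.9 FPKM in PV0-M, 935 in PV1-M, 1037.7 in PV2-M, 753 in PV3-M, 893 in PV4-M, 884 in PV5-M and 741 in PV6-M. No fold is given against a line listed at 0. It was the only gene of the table at 0 in every library of a line and above 0.4 FPKM in every library of the other, and no gene showed the reverse. Without read counts, a listed 0 may mean that no estimate was made, and the summed FPKM of the other 15 astrocyte markers was 1287 to 5167 in Sst samples and 2292 to 3729.8 in Pvalb samples.

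Beyond the lists, 106 of the genes past the threshold did not overlap between the lines in any sample, 44 higher (0.303% of all tested) and 62 lower (0.427%) in Sst samples. The largest rises were of genes at low levels. Tnfaip6, a hyaluronan-binding protein induced in inflammation, was at 2.79 to 18.8 FPKM in Sst samples (median 5.95) and 0.457 to 1.55 in Pvalb samples (median 0.658). Impa2, an inositol monophosphatase, was at 0.681 to 7.26 FPKM in Sst samples (median 2.5) and 0 to 0.508 in Pvalb samples (median 0), and was listed at 0 in 4 of 6 Pvalb samples. The death receptor gene Fas was at 0.379 to 4.16 FPKM in Sst samples (median 1.17) and 0 to 0.0804 in Pvalb samples (median 0), and PV0-M and PV2-M made up the only Pvalb sample above 0. The log2 differences of these 3 were 2.01 (SE 0.29, adjusted p = 0.000756), 1.82 (SE 0.32, adjusted p = 0.0032) and 1.33 (SE 0.26, adjusted p = 0.00521), and 1.78, 1.65 and 1.31 without the high-Xist samples.

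Genes at higher levels also separated the lines. Fbxo3, a substrate receptor of ubiquitin ligases (chromosome 2, 104027799 to 104063237), was at 8.61 to 22.8 FPKM in Sst samples (median 14.4) and 3.78 to 6.84 in Pvalb samples (median 4.72), with a log2 difference of 1.32 (SE 0.19, adjusted p = 0.000773). Map7, a microtubule-associated protein that recruits kinesin-1 (chromosome 10, 20148920 to 20281590), was at 8.11 to 29.6 FPKM in Sst samples (median 15.6) and 4.15 to 7.21 in Pvalb samples (median 5.41), with 1.31 (SE 0.22, adjusted p = 0.00244). Atp6v1h, a subunit of the vacuolar proton pump, was at 10.2 to 39.2 FPKM in Sst samples (median 13.5) and 5.37 to 7.44 in Pvalb samples (median 6.47), with 1.06 (SE 0.2, adjusted p = 0.00521). Zw10, a protein of kinetochores and vesicle tethering, Armcx5, Jmjd7, Mapk12 (the p38 gamma kinase), Ddc (aromatic amino acid decarboxylase) and Gm10390 complete the 12 largest rises, by 1.11 to 1.49. Jmjd7, Armcx5, Impa2 and Gm10390 overlap other genes (Gm28042, Gprasp1, Gm30321 and Rbm19), as Dancr does Snora26, and since no strand was stated the reads of such pairs cannot be told apart. The averaged SST0-M and SST1-M sample was the highest Sst sample for Tnfaip6, Map7, Zw10, Armcx5, Gm10390, Mapk12 and Atp6v1h.

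Among the falls, Slfn9, a Schlafen family gene, was at 0.447 to 2.84 FPKM in Sst samples (median 1.53) and 6.62 to 12.2 in Pvalb samples (median 9.45), and 1 of 5 tested Schlafen genes passed. Cnih3, an auxiliary subunit of AMPA receptors (chromosome 1, 181350459 to 181460641), was at 0 to 0.839 FPKM in Sst samples (median 0.423) and 2.02 to 6.55 in Pvalb samples (median 5.22). Mmp17, a membrane-anchored metalloproteinase (chromosome 5, 129584151 to 129611099), was at 0.17 to 3.07 FPKM in Sst samples (median 0.547) and 3.66 to 5.56 in Pvalb samples (median 5.07). All 13 Sst samples lay below all 6 Pvalb samples for each, with log2 differences of −2.09 (SE 0.21, adjusted p = 1.3e-05), −1.87 (SE 0.21, adjusted p = 4.59e-05) and −1.77 (SE 0.23, adjusted p = 0.000333). Fhl3, a LIM-domain protein, was at 2.68 to 15.7 FPKM in Sst samples (median 5.88) and 16.7 to 29.2 in Pvalb samples (median 19.9) and R3hdm4, the most abundant of these genes, at 10.3 to 58.1 FPKM in Sst samples (median 38.5) and 66.8 to 102 in Pvalb samples (median 86.6), with log2 differences of −1.6 and −1.41. Rusc1, the long non-coding RNA Dancr, the T-box gene Tbx19, Neurl1a (a ubiquitin ligase of neurons), Phf11b, Cacna1a and Kcnd1 make up the rest of the 12 largest falls, from which Slc1a2, listed at 0 in a whole line, was left out. Dancr was listed at 0 in the averaged SST0-M and SST1-M sample and at 1.43 FPKM or more in the other 12 Sst samples.

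**Figure D5:**
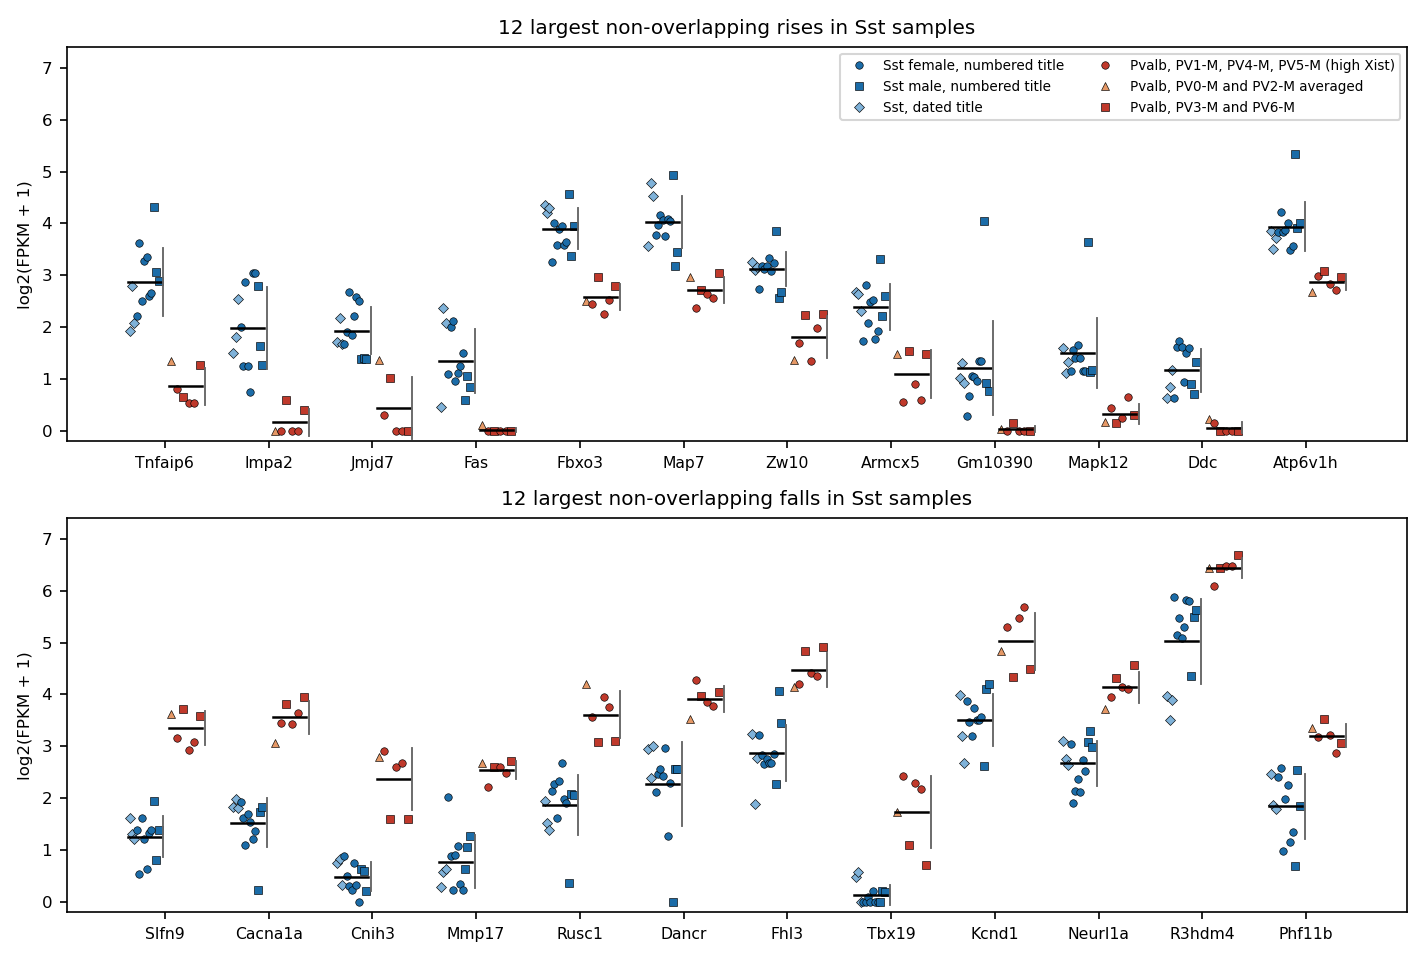
The 12 largest rises (top) and 12 largest falls (bottom) in Sst samples among genes past the threshold whose lines do not overlap, leaving out Slc1a2 (listed at 0 in every Sst library), as log2(FPKM + 1) per sample (y axes). Black lines are means and grey bars 1 SD either side. In every panel column the Sst points lie wholly above or below the Pvalb points, and the square far from the other Sst points for Gm10390, Mapk12, Cacna1a and Dancr is the averaged SST0-M and SST1-M sample.

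Without the high-Xist samples 14 genes passed, and 12 of them had passed with all samples. Besides Slc1a2 they were Slfn9, Cacna1a, Cnih3, Mmp17, Fhl3, Osbp2, Scd3, Ccdc63 and Fgf17, all lower in Sst samples, and Atp6v0c and Tdrkh, both higher. Of these 12, Ccdc63 and Fgf17 did not pass in every fit that left out a single sample and the other 10 did. The 2 that had not passed before were Mir6418, lower, and 6530402F18Rik, higher. Osbp2, an oxysterol-binding protein gene, Scd3, a stearoyl-CoA desaturase gene, Ccdc63, Fgf17, Tdrkh, Atp6v0c, Mir6418 and 6530402F18Rik are named after their values were seen. Osbp2 was at 0 to 1.51 FPKM in Sst samples (median 0.78) and 1.72 to 3.43 in Pvalb samples (median 2.53). Atp6v0c, the ring subunit of the vacuolar proton pump, was at 2.55 to 48.5 FPKM in Sst samples (median 19.2) and 0 to 9.84 in Pvalb samples (median 0), with a log2 difference of 3.44 (SE 0.59, adjusted p = 0.00244). It was listed at 0 in 4 of 6 Pvalb samples, all but PV3-M and PV5-M, whereas Atp6v1h of the same pump was at 5.37 FPKM or more in all 6. Tdrkh, a Tudor-domain protein of the piRNA pathway, was at 7.76 to 16.1 FPKM in Sst samples (median 11.3) and 4.37 to 8.05 in Pvalb samples (median 5.5), with a log2 difference of 0.91 (SE 0.16, adjusted p = 0.00267).

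Few genes of the translation and respiration lists passed with all samples, and their counts depended on single samples. Of 83 tested cytosolic ribosomal protein genes 3 fell, Rps15, Rpl18 and Rpl36a by 1.35, 0.93 and 0.87, the median was −0.3 and 66 of 83 differences were negative. The count was 13 without the averaged SST0-M and SST1-M sample, 11 without the averaged PV0-M and PV2-M sample and 0 without PV1-M, PV4-M or PV5-M. Of 77 mitochondrial ribosomal protein genes Mrpl15, Mrpl44 and Mrpl18 rose by 0.97, 0.86 and 0.79, with a list median of −0.12. Of 82 nuclear oxidative phosphorylation genes the cytochrome oxidase subunit genes Cox8a and Cox4i1 fell by 1.14 and 0.92, and the ATP synthase gene Atp5j rose by 0.93. With 1 sample left out, 1 to 10 genes of that list were lower, and 0 to 6 mitochondrial ribosomal protein genes were higher and 0 to 7 lower, and each highest count was reached without the averaged SST0-M and SST1-M sample.

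Of 48 proteasome genes 4 rose and none fell (median 0.11, and 0.04 without the high-Xist samples). Psmb1, a beta subunit of the proteasome core, was at 17.6 to 34.5 FPKM in Sst samples (median 23.3) and 13.5 to 17.1 in Pvalb samples (median 15.4) without overlap, with a log2 difference of 0.61 (SE 0.14, adjusted p = 0.0103), and Psmc6, Psma3 and Psmg3 rose by 1.15, 0.86 and 1.28. Of 53 heat shock protein and chaperone genes 4 rose and 1 fell, and without PV4-M none passed. Hspa12b, an Hsp70 relative of endothelium, was at 0.715 to 4.07 FPKM in Sst samples (median 2.03) and 0.116 to 0.675 in Pvalb samples (median 0.415) without overlap, with 1.03 (SE 0.25, adjusted p = 0.015), and Dnaja4 also did not overlap. Of 28 immediate early genes Egr3 and Arc, which neuronal activity and dissociation both induce, fell by 1.52 and 1.02 (adjusted p = 0.0275 and 0.0142), and of 20 glucocorticoid receptor and target genes the clock gene Per1 rose by 0.73 (adjusted p = 0.0425).

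Of 47 histone genes 3 rose and 1 fell, and of 32 lysosomal genes Ctsk, cathepsin K, rose by 0.89 without overlap and Laptm5 fell by 0.87. No gene of the cholesterol (25 tested), glycolysis (19), small nucleolar RNA (56) or small nucleolar RNA host gene (12) lists passed, and the medians were 0.07, 0.01, 1.31 and 0.02. With the 10 numbered Sst samples the small nucleolar RNA median was 0.39.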

How the data were processed

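Sorted tdTomato-positive cells of 30 labelled mPFC samples were sequenced, and 24 had a column in the table used here. The other 6, a female Pvalb control among them, were not analysed here. The authors deposited FPKM values per gene, made with TopHat2, Cufflinks and Cuffdiff on mm10 per the labels. The study's methods also name other aligners and another build, so which run made the table is not settled. The table gives no read counts per library.

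Near-identical libraries (SD of their log2 ratio 0.017 and 0.0212) were averaged and counted once. Genes with a mean FPKM above 0.4 were tested as log2(FPKM + 1), a scale that understates changes of low genes, with limma 3.58.1 (trend and robust) in R 4.3.3 and Benjamini-Hochberg adjustment over all genes tested. Adjusted p-values in the text are limma's. Sst and Pvalb transcripts were compared by two-sided exact permutation tests (scipy 1.17.1). The fits were also run on simulated data in which all samples varied independently. That simulation does not cover samples that lie close together, so it does not show how many false calls these data give. Coordinates are RefSeq's on GRCm38.p6. Gene lists and members were chosen with earlier results of these data known. Named genes were Sst, Pvalb and 6 sex-linked genes, the 12 largest rises and falls without overlap, up to 4 members per list by size of change (where none passed, the 2 with the highest mean), and genes at 0 in every library of a line. Other list members are named to complete a count, after their values were seen. Alternatives covered filters, pseudocounts, scaling, sample sets and covariates. Some list members and 1 list are not reported here.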

Additional observations from a re-analysis of the deposited data

Results flagged for a closer look

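Single samples far from the rest of their group by Dixon's test gave 26 flags over 132 groups of values. The groups share samples, so the flags are not independent and no number expected by chance is given. Values are log2(FPKM + 1).

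The averaged PV0-M and PV2-M sample stood apart from the other 5 Pvalb samples in its list means for endothelial markers (3.34 against 0.99 to 1.25), pericyte and smooth muscle markers (4.75), oligodendrocyte markers (5.89), disease-associated microglia (5.38), perivascular macrophages (2.99), monocytes and neutrophils (1.55) and red blood cells (3.28), all higher, and for pan-neuronal (2.23 against 4.0 to 4.26) and excitatory markers (1.47), both lower. It was the only Pvalb sample with Fas above 0 (0.11). In PV3-M Gm10390 was at 0.14.

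SST-F stood apart from the other female Sst samples with higher list means for pan-neuronal (4.0 against 2.78 to 3.01), excitatory (2.47), GABA machinery (2.11), other interneuron (1.65) and pericyte markers (4.77), lower ones for astrocyte (5.85) and oligodendrocyte markers (4.95), lower Zw10 (2.73) and higher Fhl3 (3.22). The lymphocyte mean was lowest in SST1-F (0.41).

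The averaged SST0-M and SST1-M sample stood apart from the other male Sst samples for Gm10390 (4.05), Mapk12 (3.64) and Atp6v1h (5.33), which were higher, and Cacna1a (0.23) and Dancr (0), which were lower.

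Slc1a2, listed at 0 in all 14 unstressed Sst libraries, was at 779 to 851 FPKM (mean 826) in the 3 Sst libraries from male mice after 14 days of chronic unpredictable stress, which enter no comparison here.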

How the results depend on the processing

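Of all genes tested, 1133 passed (479 higher, 654 lower and 106 without overlap between the lines). With a minimum log2 difference of 1, 565 genes passed (245 higher, 320 lower and 48 without overlap). With numbered Sst samples only, 1478 genes passed (705 higher, 773 lower and 186 without overlap). With dated Sst samples only, 4236 genes passed (1960 higher, 2276 lower and 3690 without overlap). With male Sst samples only, 491 genes passed (182 higher, 309 lower and 286 without overlap). With female Sst samples only, 3638 genes passed (1874 higher, 1764 lower and 946 without overlap). With title series as a covariate, 1596 genes passed (747 higher, 849 lower and 106 without overlap). With sex label as a covariate, 1953 genes passed (849 higher, 1104 lower and 110 without overlap). Without PV1-M, PV4-M and PV5-M, 14 genes passed (3 higher, 11 lower and 14 without overlap). With these 3 against female Sst samples, 6437 genes passed (3263 higher, 3174 lower and 5313 without overlap). With the microglia mean as a covariate, 38 genes passed (5 higher, 33 lower and 15 without overlap). Among alternatives chosen after the data were seen, with the pan-neuronal mean as a covariate 29 genes passed (5 higher, 24 lower and 13 without overlap), with the endothelial mean 26 genes passed (5 higher, 21 lower and 16 without overlap), without either averaged pair 3061 genes passed (1461 higher, 1600 lower and 747 without overlap). In the fits that left out 1 sample each, the counts ran from 389 to 2130 in all, from 144 to 986 higher, from 245 to 1144 lower and from 83 to 545 without overlap. With a pseudocount of 0.1, 53.2% of the genes that passed were higher in Sst samples, against 42.3% with 1 and 33.2% with 5. The causes of these shifts were not tested. 

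Same-numbered Sst and Pvalb samples did not deviate together (correlations of −0.0245 to 0.0577), with the averaged PV0-M and PV2-M sample standing for PV2-M. Whether they share more than a number cannot be told from these correlations. With the number as a block over SST1-F to SST6-F and PV1-M to PV6-M, 3983 genes passed (2044 higher, 1939 lower and 1990 without overlap), and without the block over the same samples 4572 genes passed (2360 higher, 2212 lower and 2096 without overlap). In the blocked fit the Sst transcript differed by −1.29 (exact permutation test, p = 0.0312) and Pvalb by −1.57. 

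The Sst transcript's log2 difference was −0.95 with female Sst samples only, −1.65 without the 3 high-Xist samples, −1.35 with these 3 against female Sst samples and −1.14 after subtraction of the pan-neuronal mean, and none of these passed. It ran from −2.31 to −1.84 with 1 sample left out. The Pvalb transcript ran from −1.59 to −1.25 there and passed in every alternative run. Of 109 named genes past the threshold, 11 changed sign under a covariate. With the pan-neuronal mean Celf4 had 0.13. With the microglia mean Slc1a3 had −0.02, Abi3 0.05 and Laptm5 0.03. With the endothelial mean Mal had −0.19, Sox10 −0.02, Ly6c1 −0.30, Slco1a4 −0.06, Kcnj8 −0.13, Myh11 −0.20 and Hspb1 −0.16. Celf4, Ly6c1 and Slco1a4 are members of the mean used as their covariate, so each was adjusted in part for itself. The causes were not tested. Without read counts per library, no counting error is given for low FPKM values.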
